A study of Mus musculus with 2 samples.

Results

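The microRNAs described here are processed from precursors that lie inside the Hox gene clusters: both arms of miR-10a, miR-10b and miR-615, and the 5p arms of miR-196a and miR-196b. They make up 8 of the 1892 probes for mature mouse microRNAs on the array, where they are named mmu-miR-10a-5p, mmu-miR-10a-3p, mmu-miR-10b-5p, mmu-miR-10b-3p, mmu-miR-196a-5p, mmu-miR-196b-5p, mmu-miR-615-3p and mmu-miR-615-5p. They were chosen by name and by the position of their precursors, with the difference of miR-10a-5p and miR-10b-5p between these tissues already known, so their values are given as a description without a test. Mouse skin and oral mucosa, both unwounded, were profiled on 1 single-colour (Cy5) microarray each, hybridized with a pool (2 µg of total RNA) made from matched samples of 3 animals. The labels give neither strain nor age, and the study's wound models used female Balb/c mice of 8 to 10 weeks, wounded on the dorsal skin and on the anterior hard palate. The place from which the unwounded specimens were taken is not stated. With 1 array per tissue, each difference below is one between 2 pools of RNA, and the error beside it covers the 2 repeat spots of a probe only.

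Hox genes encode transcription factors that mark position along the body axis, and they sit in clusters in which the order of the genes follows the order of the body regions that use them. Cells of adult skin, fibroblasts above all, keep a Hox pattern of their body site, whereas much of the connective tissue of the face and palate comes from cranial neural crest that uses few Hox genes. MicroRNAs encoded between and within the Hox genes are commonly expressed along with their neighbours, and some of them target Hox transcripts, as miR-196 does with Hoxb8. MiR-10b is studied for its part in cell migration.

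The members fall into groups by their seed, the bases 2 to 8 that pair with target transcripts. The mature sequences below show these groups, with the seed in capitals. They are RefSeq sequences (GRCm38.p6), found for 8 of 8 members, and 8 were identical to the target sequence that the array files give for the probe.
miR-10a-5p: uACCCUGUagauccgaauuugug
miR-10b-5p: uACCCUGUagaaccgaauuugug
miR-196a-5p: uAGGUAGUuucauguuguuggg
miR-196b-5p: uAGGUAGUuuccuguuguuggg
miR-10a-3p: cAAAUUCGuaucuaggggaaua
miR-10b-3p: cAGAUUCGauucuaggggaaua
miR-615-3p: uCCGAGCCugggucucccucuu
miR-615-5p: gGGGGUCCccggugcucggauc

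MiR-10a-5p and miR-10b-5p share their seed with each other and with no other probe of the array, and so do miR-196a-5p and miR-196b-5p. Counted from the 5′ end, miR-10a-5p and miR-10b-5p differ by U12A alone, so that 22 of 23 bases are the same. MiR-196a-5p and miR-196b-5p differ by A12C, with 21 of 22 bases the same. The 3p arms of the miR-10 pair differ at 3 positions (A3G, U9A and A10U), of which the first falls in the seed. Neither arm of miR-615 shares its seed with another probe. Probes that differ by 1 base can bind each other's microRNA in part, and how far they did so was not tested.

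Both arms of a precursor come from 1 transcript, cut at the same time. The precursors of the miR-10 pair are printed with the 5p arm and then the 3p arm in capitals, since the arms gave different readings. Mir10b lies at chr2:74726070-74726137 and Mir10a at chr11:96317165-96317274, both on the plus strand of GRCm38.p6.
Mir10b: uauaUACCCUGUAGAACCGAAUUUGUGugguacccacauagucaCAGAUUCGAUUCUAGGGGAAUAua
Mir10a: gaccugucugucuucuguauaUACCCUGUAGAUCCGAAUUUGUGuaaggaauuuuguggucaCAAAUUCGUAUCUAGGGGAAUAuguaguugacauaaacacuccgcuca

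All 6 precursor genes were placed among Hox genes by the RefSeq gene spans. Mir10a fell within the span of Hoxb3, 0.99 kb from Hoxb4, and Mir10b within the spans of both Hoxd3 and Hoxd4. Mir615 (chr15:103014910-103015001, plus strand) fell within Hoxc5. MiR-196a-5p is made from a pair of genes, Mir196a-1 (chr11:96265164-96265265, plus strand), 6.07 kb from Hoxb9, and Mir196a-2 (chr15:102973350-102973434, plus strand), between Hoxc10 at 1.45 kb and Hoxc9 at 3.60 kb. Mir196b (chr6:52230081-52230165, minus strand) lay between Hoxa9 at 2.71 kb and Hoxa10 at 1.03 kb. The gene spans do not tell exons from introns. The array reads mature miR-196a-5p without telling its 2 genes apart, and only their 3p arms differ.

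**Figure D1:**
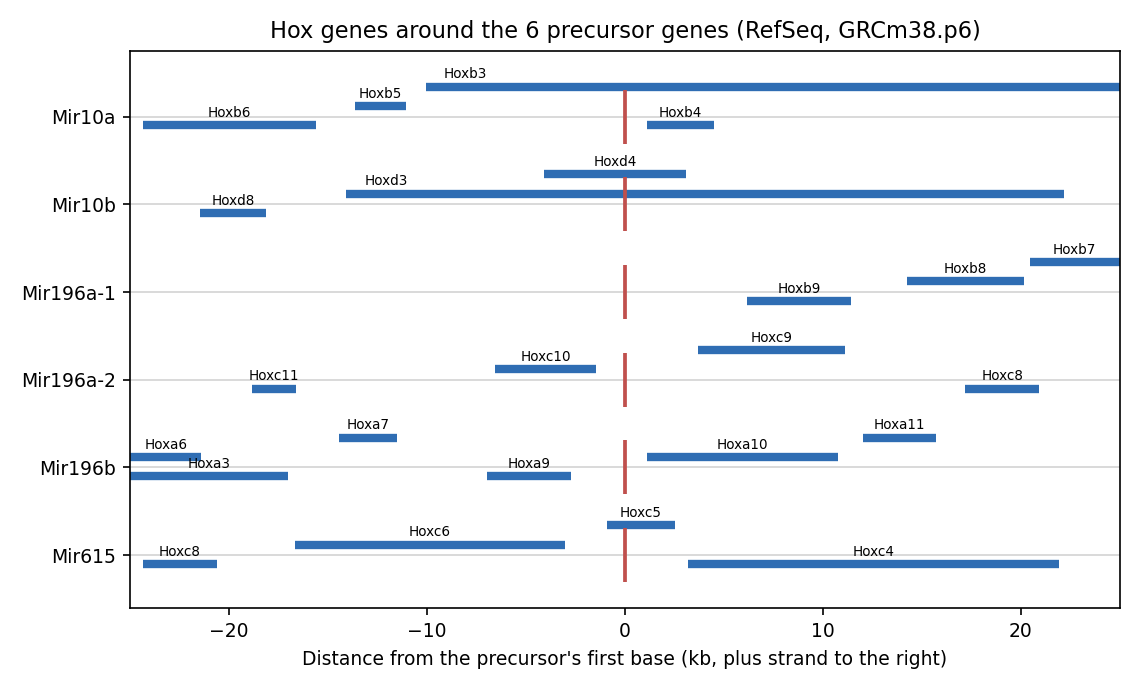
Hox genes within 25 kb of each of the 6 precursor genes, one line per precursor. Hoxc6, which starts 24.9 kb from Mir196a-2, is not drawn on that line. The horizontal axis is the distance in kb from the lowest coordinate of the precursor (red mark), blue bars are the RefSeq spans of protein-coding Hox genes, and Mir10a, Mir10b and Mir615 lie inside a bar, Mir196a-2 and Mir196b lie between bars, and Mir196a-1 has bars on one side only within this range.

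On these arrays the authors deposited the median brightness of each spot in scanner units, without background subtraction. The 16 empty spots averaged 36.4 (SD 7.84) for skin and 51.9 (SD 6.65) for oral mucosa. The detection limit for the average of a probe's 2 spots was set 3 SD above them, which came to 59.9 in skin but 71.8 in oral mucosa. With this limit 562 of the 1892 probes were detected on at least 1 array, 446 in skin and 510 in oral mucosa. Differences are oral mucosa minus skin after Variance Stabilizing Normalization (VSN), whose values run parallel to log2 at high signal, and 2-fold, or 1 on this scale, was taken as the size rule. For a probe detected in skin only, the oral mucosa side of the difference is the lowest detected signal on that array (71.9) unless its own signal is higher, so the fold is a lower bound for the normalization used.

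Of the 8 members, 3 were detected in skin and 0 in oral mucosa. The 3 were miR-10b-5p, miR-10a-5p and miR-196a-5p, all of them 5p arms, from the miR-10 and miR-196 families, and each was past 2-fold toward skin. The remaining 5, miR-196b-5p, both miR-10 3p arms and both miR-615 arms, did not reach the limit on either array.

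MiR-10b-5p read 1856 and 2054 on its 2 skin spots and 46.8 and 69.2 on its 2 oral mucosa spots. Both skin spots lay far above the limit, both oral mucosa spots lay below it, and the arrays did not overlap. Within a spot the pixel SD was 84.6 and 56.3 on the skin array and 4.99 and 4.82 on the oral mucosa array. In skin the mean was thus 1955 ± 140, where the error is the SD between the 2 repeat spots here and below, and in oral mucosa it was 58.0 ± 15.9. The mean lay 245 SDs of the empty spots above their mean in skin and 0.92 in oral mucosa. Among the probes within 3 rows and 3 columns, the median oral mucosa signal was 61.6 around the spot that read 46.8 and 54.2 around the spot that read 69.2. One oral mucosa spot was therefore dimmer than its surroundings and the other brighter. The VSN log2 difference was -6.68 (SD 0.11 from the skin spots), which is at least 103-fold higher in skin with this normalization.

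MiR-10a-5p read 363 and 334 on its skin spots, against 39.5 and 54.9 on its oral mucosa spots. Again the skin spots were clear of the limit and the oral mucosa spots were at the level of the empty spots. The surroundings of the oral mucosa spots had medians of 49.4 and 54.4. In skin the mean was 349 ± 20.6, and in oral mucosa it was 47.2 ± 10.95, the latter 0.70 SD under the mean of the empty spots (-0.70). The VSN log2 difference was -4.06 (SD 0.10), or at least 16.6-fold higher in skin. The miR-10 spots include column 1 at the edge of the array, where 3 of 26 bright probes of the skin array read more than 4-fold below their repeat spot elsewhere. Those 3 lay in rows 114 to 118, and the edge spots of miR-10a-5p and miR-10b-5p, in rows 70 and 72, were within 1.5-fold of their repeat spots.

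MiR-196a-5p was dimmer, at 102 and 94.6 on the skin spots and 39.9 and 43.5 on the oral mucosa spots. The arrays did not overlap, and both oral mucosa spots lay under the mean of the empty spots and under their surroundings, whose medians were 51.1 and 51.2. Its mean was 98.2 ± 5.11 in skin, 7.89 SDs above the empty spots, and 41.7 ± 2.55 in oral mucosa, at -1.53 SDs. The log2 difference with VSN was -1.69 (SD 0.12), or at least 3.22-fold. Unlike those of the miR-10 pair, this value depended on the normalization for its place past the size rule, as given below.

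MiR-196b-5p, the partner of miR-196a-5p with the same seed, read 54.0 and 48.5 in skin and 41.4 and 46.0 in oral mucosa. It did not reach the limit on either array, although the skin spots were both above the oral mucosa spots. Its mean lay 1.90 SDs above the empty spots in skin and at -1.22 SDs in oral mucosa. Over all 1892 probes, 4.55% had both skin spots above both oral mucosa spots, and this held for 4 of the 8 members, namely miR-196b-5p and the 3 detected ones.

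The 3p arms of the miR-10 precursors stayed at background. MiR-10b-3p read 46.7 and 51.6 in skin and 37.9 and 54.5 in oral mucosa, and miR-10a-3p read 42.1 and 46.1 against 40.2 and 49.4. For each of them the spots of the arrays overlapped, so the precursors that gave a clear 5p signal in skin gave no 3p signal above the limit of these arrays. The 3p arm is commonly the strand that is discarded when the 5p arm is loaded onto Argonaute.

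MiR-615, from within Hoxc5, was not detected by either arm. MiR-615-3p read 62.3 and 46.2 in skin and 65.5 and 49.6 in oral mucosa, so that 1 of its skin spots passed the limit and the mean (54.3 ± 11.4) did not. MiR-615-5p read 54.7 and 43.1 in skin and 55.8 and 51.8 in oral mucosa. Spots of both arms overlapped between the arrays.

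**Figure D2:**
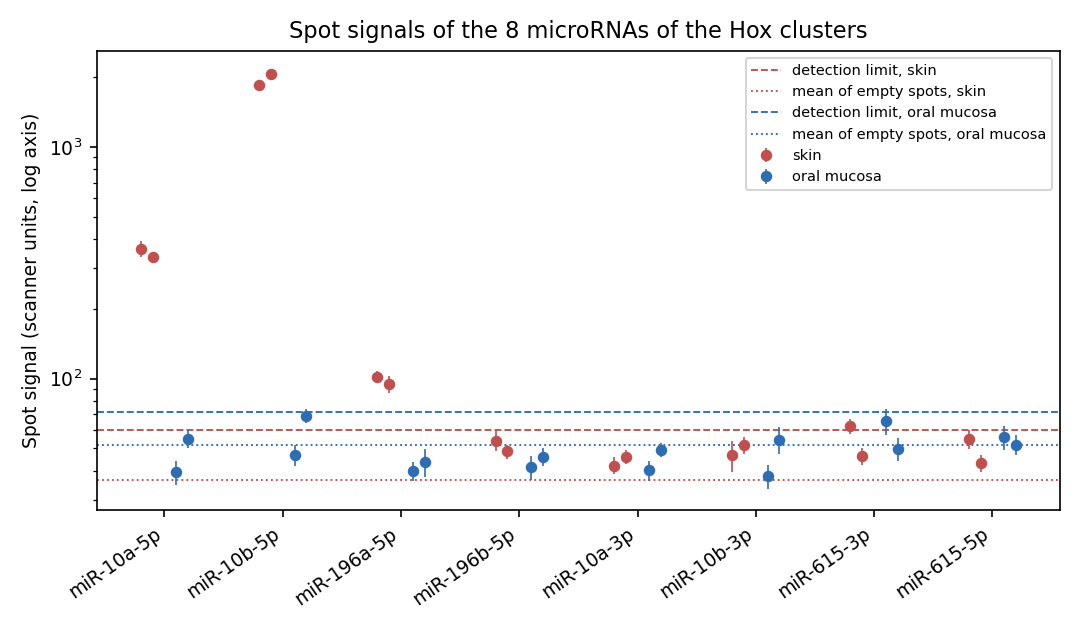
Signal of each of the 2 repeat spots (scanner units, log axis) for the 8 members on the skin array (red) and the oral mucosa array (blue), with bars for the SD of the pixels within a spot. Dashed lines are the detection limits and dotted lines the means of the empty spots, and only the skin spots of miR-10a-5p, miR-10b-5p and miR-196a-5p have both spots above their array's dashed line.

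A background-relative reading was made for all members, since 5 of them allow no fold. In SDs of the empty spots, 8 of 8 members stood higher on the skin array than on the oral mucosa array. The same was so for 69% of all 1892 probes, and more probes read above the mean of the empty spots in skin (87.9%) than in oral mucosa (51.0%), so little can be read from that count.

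The 3 remaining arms of the same precursors were miR-196a-1-3p, miR-196a-2-3p and miR-196b-3p, and 0 of the 3 were detected on either array. MiR-196b-3p came closest, at 67.3 and 75.6 in oral mucosa, where its mean of 71.5 fell just short of the limit of 71.8, against 47.2 and 50.6 in skin. For each of the 3 arms both oral mucosa spots lay above both skin spots. The empty spots were also brighter on the oral mucosa array (51.9 against 36.4). The share of all probes with this order was not counted, so no lean of these arms toward oral mucosa can be read from it. MiR-196a-1-3p read 38.8 ± 0.51 in skin and 51.1 ± 0.92 in oral mucosa, and miR-196a-2-3p read 36.8 ± 0.18 and 48.4 ± 3.30, in each case close to the empty spots of the array. These arms therefore do not tell which of the genes Mir196a-1 and Mir196a-2 gave the miR-196a-5p signal.

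Over all 562 detected microRNAs, 83, or 14.8%, were past the size rule toward skin and 77, or 13.7%, toward oral mucosa, with a median difference of -0.00. These shares are no measure for the 3 detected members, which passed the detection limit through skin alone and so could differ toward skin only. Detection in skin only was found for 52 of the 562, or 9.25%, and 26 of those 52, or 50%, were past 2-fold toward skin, as miR-10b-5p, miR-10a-5p and miR-196a-5p were. Ranked from the largest difference toward skin, miR-10b-5p was number 1, miR-10a-5p number 3 and miR-196a-5p number 37 of 562. At a threshold of 4-fold, which 4.45% of the detected microRNAs passed toward skin, miR-10b-5p and miR-10a-5p were called. The members were chosen with part of this contrast known, so nothing follows from their share beyond the values.

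**Figure D3:**
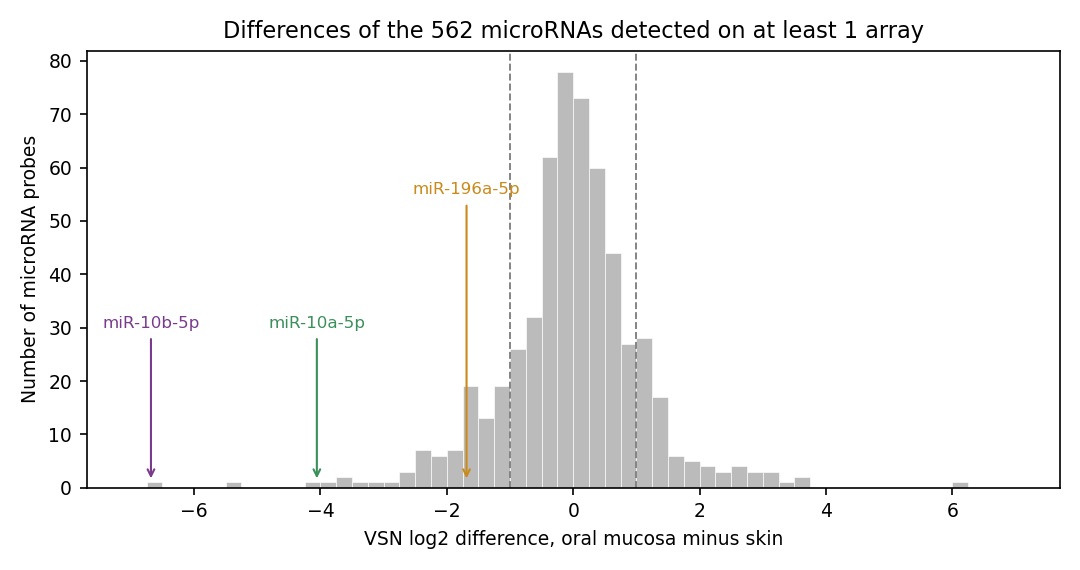
Distribution of the VSN log2 difference (oral mucosa minus skin) over the 562 microRNAs detected on at least 1 array, in bins of 0.25, with dashed lines at the size rule of 2-fold. Arrows mark miR-10b-5p at -6.68, miR-10a-5p at -4.06 and miR-196a-5p at -1.69.

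The size of these differences depended on how the background and the scale were treated. Under 11 other settings, miR-10b-5p stayed past 2-fold toward skin in 11, and its smallest difference was -4.57 (at least 23.7-fold), with normexp background correction followed by scaling to the median. MiR-10a-5p also stayed past it in 11 of 11, at -2.15 or at least 4.45-fold at the smallest. MiR-196a-5p stayed below 0 in 12 of 12 settings but past 2-fold in 4, all of them forms of VSN. Without normalization between the arrays its difference was -0.45, or at least 1.37-fold. On the processed values of the authors, in whole numbers from 0 whose making is not given in the sources used here, miR-10b-5p stood at 2191 in skin and 9 in oral mucosa, miR-10a-5p at 386 and 1, and miR-196a-5p at 74 and 0. Those of the 5 undetected members ran from 5 to 20 in skin and from 0 to 8 in oral mucosa.

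**Figure D4:**
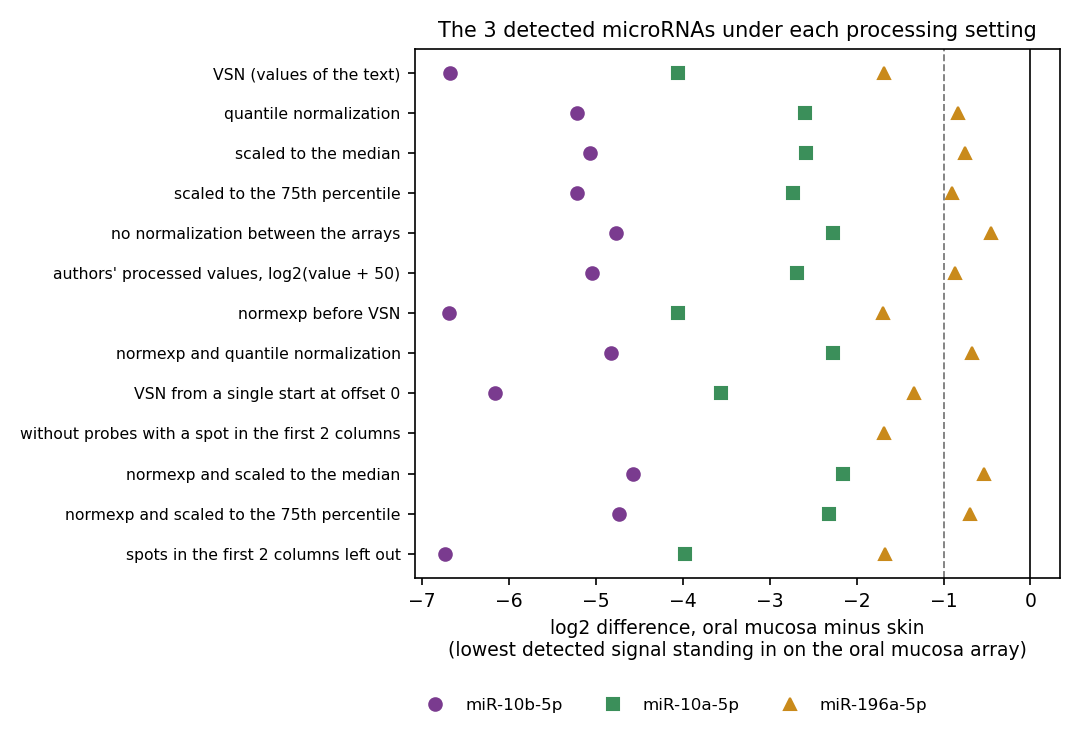
Log2 difference, oral mucosa minus skin, of the 3 detected members under VSN and each other setting, one row per setting, with a dashed line at -1 (2-fold). The points of miR-10b-5p and miR-10a-5p lie left of the line in every row that has them, while those of miR-196a-5p lie left of it only in the rows of VSN, including VSN with normexp or with edge spots or probes left out.

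MicroRNAs of like sequence were read next, since the miR-99 and miR-100 family belongs to the same ancient family as miR-10, with a seed that lacks one base of it. The sequences are printed with a run of 11 bases in capitals that miR-10a-5p shares with miR-100-5p, the closest probe on the array after its partner miR-10b-5p. MiR-10b-5p does not hold this run.
miR-10a-5p: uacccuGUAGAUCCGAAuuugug
miR-100-5p: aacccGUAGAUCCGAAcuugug

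In contrast to miR-10, the 5p arms of this family were bright on both arrays. MiR-100-5p stood at 272 ± 41.5 in skin against 294 ± 24.9 in oral mucosa, with a log2 difference of -0.37 (SD 0.30) that was above 0 without normalization between the arrays. MiR-99a-5p, which differs from miR-10a-5p by 4 single-base edits, read 1341 ± 108 and 2274 ± 196, a difference of 0.32 (SD 0.17). MiR-99b-5p read 339 ± 12.6 and 312 ± 36.3, a difference of -0.64 (SD 0.21). On the oral mucosa array the probes of miR-10a-5p and miR-10b-5p stayed under the limit while miR-99a-5p and miR-100-5p were well above it. How far the miR-10 probes bind these microRNAs was not tested. Of the 6 arms of this family, 4 were detected, 0 were past 2-fold toward skin and 1, miR-99b-3p at 1.09 (SD 0.10), was past it toward oral mucosa with VSN. That value was as low as 0.34 under other settings.

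The let-7 family is a regulator of growth and differentiation, and its seed overlaps that of miR-196 when shifted by 1 base. It was detected on both arrays by 9 of 9 listed probes, miR-98-5p included. The array holds further let-7 probes outside this list. With VSN 5 of the 9 were past 2-fold toward skin and 0 toward oral mucosa, with a median of -1.05, against 14.8% and 13.7% of all detected microRNAs. The count depended on the scaling. It was 2 after quantile normalization, and without normalization between the arrays 1 probe (let-7e-5p, -1.31) was past 2-fold toward skin and 1 (let-7i-5p, 1.05) toward oral mucosa. The 5 with VSN were let-7a-5p, let-7d-5p, let-7e-5p, let-7f-5p and miR-98-5p, each below 0 under every other setting that gave it a value, whereas the direction of let-7b-5p, let-7c-5p and let-7g-5p changed in some of them. Let-7c-5p read 10667 ± 1203 in skin and 11265 ± 1682 in oral mucosa. On the oral mucosa array the miR-196a-5p probe lay under the mean of the empty spots. Whether let-7 binds to that probe was not tested.

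**Figure D5:**
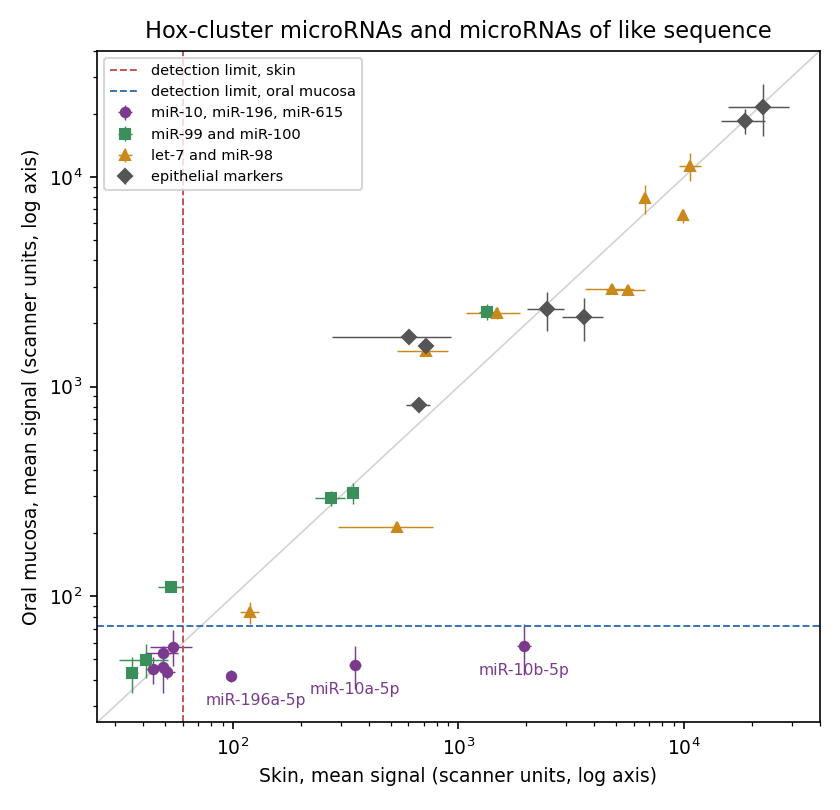
Mean signal in oral mucosa against skin (scanner units, both axes log) for the 8 members, the miR-99 and miR-100 arms, let-7 with miR-98, and epithelial marker microRNAs, with bars for the SD of the 2 repeat spots, dashed detection limits and a grey line of equal signal. The 3 labelled members lie right of the skin limit and under the oral mucosa limit, whereas the let-7 and epithelial probes and 3 of the miR-99 and miR-100 arms lie above both limits.

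The tissue labels were set against marker microRNAs. Epithelial markers were detected on both arrays by 7 of 7 probes, among them the keratinocyte microRNAs miR-203-3p (18735 ± 4105 in skin, 18503 ± 2483 in oral mucosa) and miR-205-5p (22415 ± 6672 and 21673 ± 5958). With VSN 1 was past 2-fold toward skin and 1 toward oral mucosa. Their summed signal as scanned, most of it from miR-203-3p and miR-205-5p, was 49225 in skin and 48779 in oral mucosa. The median of the 7 differences with VSN was -0.48. Markers of other cell types had higher summed signals, as scanned, in oral mucosa. Mesenchymal markers were past 2-fold toward oral mucosa for 5 of 5 with VSN and for 3 of 5 after normexp and quantile normalization. With VSN the share of all 562 detected microRNAs past 2-fold was 14.8% toward skin and 13.7% toward oral mucosa. After normexp and quantile normalization 37 of the 562 were past it toward oral mucosa. The summed signal of the mesenchymal markers was 516 in skin and 1871 in oral mucosa. The sums were 81.6 and 200.2 for 2 endothelial markers and 105 and 3106 for 2 red blood cell markers. They were 297 and 428 for 4 skeletal muscle markers, none of them past 2-fold, and 140 and 353 for 3 white blood cell markers. Probes under the limit are included, and the empty spots averaged 36.4 in skin and 51.9 in oral mucosa. Only 1 endothelial (miR-126a-3p), 1 red blood cell (miR-451a) and 1 white blood cell marker (miR-150-5p) were detected on at least 1 array. With VSN the muscle marker miR-206-3p was at -0.19. With VSN none of these lists outside the epithelium had a member past 2-fold toward skin. Cell types without a list here were not read. In pooled tissue, fewer cells of a type and less RNA per cell cannot be told apart, and the part of cell makeup in the differences of the Hox-cluster microRNAs was not tested.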

How the data were processed

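Total RNA pooled from 3 animals per tissue was tagged, stained and hybridized to 1 mouse microRNA array (miRmouse v21, LC Sciences) for each tissue. The authors deposited a Cy5 intensity per spot (the median of its pixels, with their SD), neither background-subtracted nor scaled, and 1 processed intensity per probe and array, made by a method not given in the sources used here. Each array holds 3968 spots, of which 184 are controls. Tissues were taken from the sample labels. The 2 repeat spots of a probe were averaged. VSN, named in the study's methods, was written in Python with an arsinh transformation; of 5 slices by mean signal, all but the dimmest were trimmed to the best-fitting 90% of probes, and fits were started from 15 pairs of offset and scale. Offsets of 38.1 (skin) and 46.5 (oral mucosa) were fitted, and the oral mucosa scale was 1.37 times that of skin. Near the offset this scale magnifies small differences, so no difference is given for probes detected on neither array. Normexp (offset 50) was run in limma. No test was possible with 1 array per tissue. Precision is limited by the number of arrays.

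The members, the lists and the rule for naming microRNAs (all members and lists, and the 3 other microRNAs with the nearest VSN difference to miR-10b-5p and to miR-10a-5p among those whose spots did not overlap between arrays) were chosen with earlier results of these data known. Alternatives were other normalizations, background corrections, filters and thresholds. The procedure was also run on simulated arrays, with changes given only to probes well above the fitted offset in skin. That run did not cover changes of probes near background in skin. Software was Python 3.11.15, numpy 2.4.6, scipy 1.17.1, pandas 2.3.3, matplotlib 3.10.9, R 4.3.3 and limma 3.58.1.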

Additional observations from a re-analysis of the deposited data

How the results depend on the processing

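No paired analysis was possible because skin and oral mucosa were hybridized to a single array each. The log2 differences of miR-10a-5p, miR-10b-5p and miR-196a-5p had the same sign under all settings run, and 0 reversed. In that order they were -2.59, -5.21 and -0.84 after quantile normalization, -2.58, -5.07 and -0.75 when scaled to the median, -2.73, -5.22 and -0.90 when scaled to the 75th percentile, and -2.28, -4.76 and -0.45 without normalization. From the processed intensities, taken as log2(value + 50), which understates changes of dim probes, they were -2.68, -5.04 and -0.87. Normexp followed by quantile normalization gave -2.27, -4.83 and -0.67, and VSN from a single start at offset 0 gave -3.56, -6.16 and -1.33. Chosen after seeing the data, normexp with median scaling gave -2.15, -4.57 and -0.53, and with 75th-percentile scaling -2.32, -4.73 and -0.70. The median over the 3 is the value of miR-10a-5p in each. Under VSN after normexp, and with the edge spots alone left out (also chosen after seeing the data), each moved by less than its repeat-spot SD. When probes with a spot in the first 2 columns were left out, all 4 miR-10 probes were dropped by construction, so that 1 member was past 2-fold and the median was -1.69. No member was past it when detection on both arrays was required, so that this setting gave no median, and 6 were past it without a detection filter, with a median of -3.31 over the 8. Members detected in skin numbered 4 at a limit of 2 SD, miR-615-3p being added, and 0 in oral mucosa.

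Over all microRNAs, 83 were past 2-fold toward skin and 77 toward oral mucosa. These counts were 38 and 42 with quantile normalization, 38 and 47 with median scaling, 49 and 36 with 75th-percentile scaling, 22 and 80 without normalization (where the median of all detected microRNAs was 0.40), 43 and 44 with the processed values, 33 and 37 with normexp and quantile normalization, 25 and 51 with normexp and median scaling (median 0.16), 32 and 38 with normexp and 75th-percentile scaling, 57 and 47 with detection on both arrays, and 285 and 338 without a filter. At 1.5-fold they were 126 and 132 and at 4-fold 25 and 21. Beyond what the filters and thresholds do by construction, the cause was not tested. Signal over background limits the values of all members in oral mucosa.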

Other observations

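The microRNAs whose difference between the tissues was nearest to that of miR-10b-5p were miR-7211-3p, miR-7088-5p and miR-7075-5p, and those nearest to miR-10a-5p were miR-7088-5p, miR-7075-5p and miR-1907, over 2 tissues with 1 array each. MiR-7211-3p was the only one of these 4 that oral mucosa did not show above the detection limit, with 831 ± 34.0 in skin (SD between repeat spots) and 61.8 ± 5.0 in oral mucosa, a log2 difference of -5.41 that lay 1.27 from that of miR-10b-5p. MiR-7088-5p was at -3.87 (SD 0.52), 0.19 from miR-10a-5p, and its oral mucosa signal was 120 ± 24.9. MiR-7075-5p was at -3.68 (SD 0.49) and miR-1907 at -3.54 (SD 0.48). The differences of miR-7211-3p, miR-10b-5p and miR-10a-5p are lower bounds in size, as the lowest detected signal stands in on the oral mucosa array. Distances from the miR-10 pair to microRNAs detected on both arrays thus set a bound against a measured difference. The order of these distances holds for the VSN values.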
